A study of Homo sapiens with 4 samples.

Results

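The tetraspanins are a family of small membrane proteins that cross the membrane repeatedly and expose a large extracellular loop. They bind laterally to integrins, immunoglobulin-domain proteins, proteases and one another, and so build membrane microdomains known as the tetraspanin web. Several members travel through late endosomes and are used as marker proteins of extracellular vesicles, and in carcinomas members are studied for their part in adhesion, shedding of surface proteins and metastasis. The genes described here were chosen by name, as the protein-coding genes of GENCODE version 29 whose symbol is TSPAN followed by a number, together with CD9, CD37, CD53, CD63, CD81, CD82, CD151, UPK1A, UPK1B, PRPH2 and ROM1. This rule uses no measured value, though the family was chosen with earlier results of these data known. It found 33 of the 58825 gene rows of the count tables. Of these 33 genes, 23 had enough counts to be tested.

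RNA was counted in LoVo cells, a human colorectal adenocarcinoma line grown in DMEM with 10% FBS, by 3' end sequencing (QuantSeq), in which a transcript gives fragments only near its 3' end. The groups were 2 libraries of MET+ cells (wild type for MET, labelled as a GFP control) and 2 libraries of MET-KO cells, in which the receptor tyrosine kinase gene MET had been disrupted with CRISPR/Cas9. The paper reports that the MET receptor of LoVo cells stays uncleaved and is constantly phosphorylated without ligand, with no mutation of the gene. MET-KO lines were grown from single puromycin-selected cells and picked by western blot for MET, and whether both MET-KO libraries came from the same clone is not given. A difference that the picked cells carried for another reason cannot be told apart from an effect of losing MET.

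The libraries held 8429142 to 10286552 counts, and a level is given in CPM, the counts of a gene scaled to a library of 1000000 counts after TMM adjustment of the library size. A count of 0 allows up to 3 counts, which is 0.276 to 0.363 CPM in these libraries, and this limit covers counting error only, since reads copied by PCR are not independent molecules. MET itself had 337.6 and 335.8 CPM in MET+ and 84.4 and 88.9 CPM in MET-KO libraries, a log2 fold change of -1.96 (standard error 0.09, edgeR adjusted p = 1.49e-18). A 3' tag is counted whether or not the transcript carries the edit, so this level does not by itself check the disruption. Of 11 colonic epithelium markers, 10 were present, with CDX1 at 0 in every library, and their summed level was 9700 and 9740 CPM in MET+ and 8320 and 7340 CPM in MET-KO libraries. The keratin genes KRT8, KRT18 and KRT19 carried most of this sum, and single markers moved both ways. CEACAM5 was counted 392 and 487 times in MET+ libraries and 0 times in MET-KO libraries, LGALS4 89 and 107 times against once in each, and VIL1 43 and 58 times against 3 times in each. KRT20 was counted 0 times in MET+ and 27 and 28 times in MET-KO libraries, and CDX2 had 63.4 and 66.5 CPM in MET+ and 145 and 123 CPM in MET-KO libraries. The leukocyte markers PTPRC and CD3E, the fibroblast marker COL1A2 and 3 of 5 endothelial markers were at 0 in all 4 libraries. The summed level of the leukocyte list was 5.92 and 9.75 CPM in MET+ and 0.882 and 0.829 CPM in MET-KO libraries. That of the fibroblast list was 2.18 and 1.64 CPM against 3.63 and 4.24 CPM, and that of the endothelial list at most 0.924 CPM. LYZ was counted 38 and 79 times in MET+ and 3 and 1 times in MET-KO libraries, and CD68 11 and 16 against 6 and 8 times. COL3A1 was counted 4 and 5 times against 24 and 26 times, and COL1A1 13 and 10 against 13 and 19 times. The part of these marker levels in the results was not tested.

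The family changed member by member, with no common direction. Of the 23 tested tetraspanin genes, 5 were higher in MET-KO cells, 8 were lower and 10 did not pass an adjusted p of 0.05 (edgeR's quasi-likelihood test, Benjamini-Hochberg adjustment over all 13801 genes tested). The 13 called genes are 56.5% of those tested, close to the 54.1% called over all genes, of which 27.2% were higher and 26.9% were lower. At a change of at least 2-fold, 3 members were higher and 4 were lower, where 14.5% and 9.81% of all tested genes were called in those directions. In 18 of the 23 genes the libraries of the groups did not overlap, against 75.6% of all tested genes. The median log2 fold change of the members was 0.05, against 0.01 over all tested genes, and their median absolute log2 fold change was 0.48, the same to 2 decimals as over all genes. The share of members called and the typical size of their change were thus near those of all tested genes. With 2 libraries in a group, an exact permutation test of a single gene cannot go below p = 0.333, so all calls rest on the spread that edgeR estimated across genes. The labels call the libraries biological replicates, without saying how separately the cultures were grown.

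**Figure D1:**
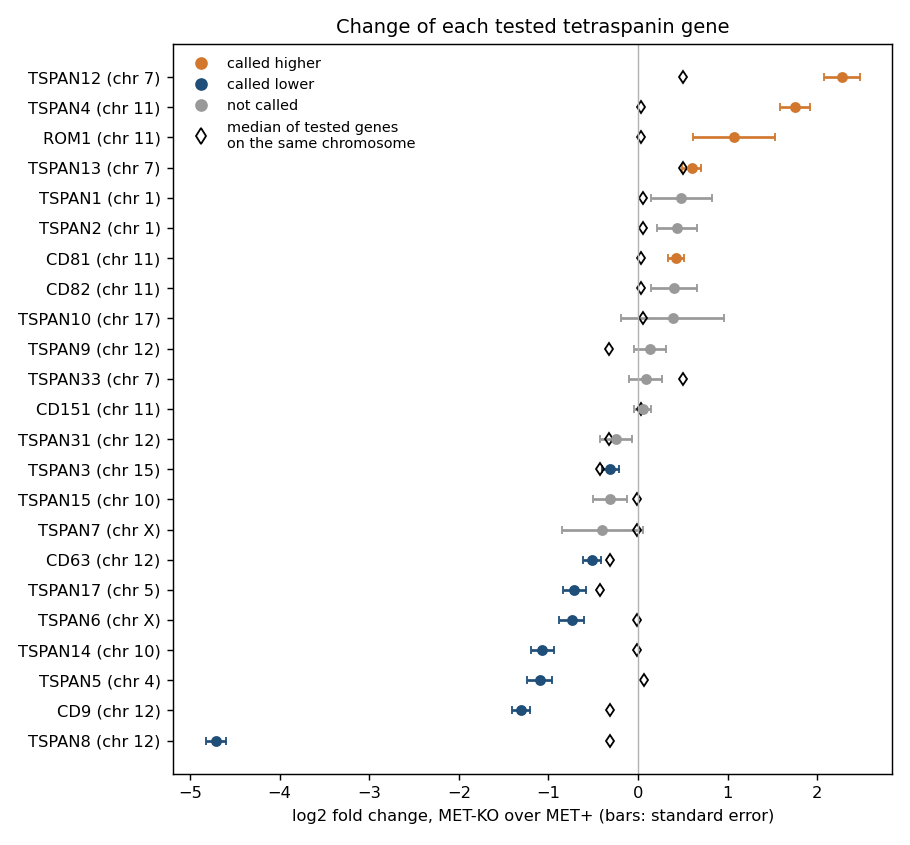
Fitted log2 fold change (MET-KO over MET+, horizontal axis) of the 23 tested tetraspanin genes, ordered by this change. Bars show the standard error, colour the edgeR call and open diamonds the median of tested genes on the same chromosome. TSPAN8 lies at -4.71, far to the left of every other member, and TSPAN12 and TSPAN4 lie farthest to the right.

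TSPAN8, a tetraspanin of gastrointestinal epithelium first described as a tumour antigen of colorectal and other carcinomas, fell most of all members. It had 989.1 and 963.7 CPM in MET+ libraries, from 8185 and 9389 counts, but 39.1 and 35.5 CPM in MET-KO libraries, from 399 and 385 counts. The MET+ libraries lay close together and far above both MET-KO libraries. The group means were 976.4 ± 18.0 and 37.3 ± 2.60 CPM (SD, n = 2 each), so MET-KO cells held 3.82% of the MET+ level. This is a log2 fold change of -4.71 (standard error 0.11, edgeR adjusted p = 1.64e-27). In these bulk libraries, fewer cells with TSPAN8 RNA and less TSPAN8 RNA in each cell cannot be told apart. TSPAN8 (ENSG00000127324) lies on the minus strand of chromosome 12, at chr12:71125085-71441898 in GRCh38, and the GENCODE model spans 317 kb. At its 5' side it shares 2129 bases with LGR5, a receptor of intestinal stem cells on the other strand, but not at the 3' end where QuantSeq reads fall. LGR5 was also lower, with 68.4 and 61.8 CPM in MET+ and 5.49 and 5.62 CPM in MET-KO libraries and a log2 fold change of -3.55 (edgeR adjusted p = 6.76e-20). On chromosome 12 the median over all tested genes was a log2 fold change of -0.32, and relative to that median TSPAN8 was at -4.40, which is percentile 1.84 of the chromosome.

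The sequence at the start of a gene is shown for the members with the largest fall and with one of the largest rises, TSPAN8 and TSPAN4, since the base composition of their starts differs widely. Both stretches were read from RefSeq promoter windows (250 bases before and 50 bases after a transcript start, GRCh38.p14) and cut to bases in no GENCODE exon. The RefSeq start of TSPAN8 used here lies inside the longer GENCODE span. They are written 5' to 3' on the strand of the gene, with CG dinucleotides in capitals.
TSPAN8 (chr12:71158100-71158249, minus strand, 150 bases): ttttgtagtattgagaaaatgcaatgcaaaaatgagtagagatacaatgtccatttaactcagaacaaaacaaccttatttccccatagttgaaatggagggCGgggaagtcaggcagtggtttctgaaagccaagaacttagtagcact
TSPAN4 (chr11:842602-842807, plus strand, 206 bases): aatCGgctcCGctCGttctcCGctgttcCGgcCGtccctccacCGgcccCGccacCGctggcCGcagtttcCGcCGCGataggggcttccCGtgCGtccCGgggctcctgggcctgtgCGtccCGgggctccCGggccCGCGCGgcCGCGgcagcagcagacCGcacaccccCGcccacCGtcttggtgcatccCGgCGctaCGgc

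The TSPAN8 stretch holds 1 CG dinucleotide and the TSPAN4 stretch holds 30. Over the 35116 windows of all genes the median was 14 CG dinucleotides in 300 bases, with quartiles of 4 and 28, and the 36 windows of the members with at least 10 counts had a median of 13. The 2 TSPAN8 windows held 1 and 3, both below the lower quartile. The 5 TSPAN4 windows held 5 to 52, so this gene has starts of both kinds, and the single TSPAN5 window held 50. For TSPAN12, the member that rose most, the single window held 13. TSPAN14, which like TSPAN5 was lower in MET-KO cells, had windows with 53, 3 and 4. The motif GGAATG, bound by TEAD factors, was searched on both strands and occurred in 14.0% of all windows and in 10 of the 45 windows of the 25 members with an entry. Those 10 windows belong to 8 members, among them TSPAN8, TSPAN12, CD63, ROM1 and TSPAN14, which moved in both directions, and the TSPAN8 match lies outside the stretch shown. The AP-1 motif TGANTCA occurred in 7.71% of all windows and in 1 window each of CD63, ROM1 and TSPAN10. These motifs were picked after the values were seen, a match of letters is not a site of binding, and no binding was measured in these libraries.

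Among the tetraspanins of the web and of vesicles, CD9 fell, CD63 fell less, CD81 rose, and CD151 and CD82 did not pass the test. CD9, which organises surface complexes and is required on the egg for fusion with sperm, had 668.6 and 676.4 CPM in MET+ and 301.7 and 242.5 CPM in MET-KO libraries. Its groups were far apart, with means of 672.5 ± 5.51 and 272.1 ± 41.9 CPM (SD, n = 2 each) and a log2 fold change of -1.31 (standard error 0.10, edgeR adjusted p = 2.47e-13). CD63, a resident of late endosomes, lysosomes and the vesicles released from them, was the most abundant member in both groups, with 1015 and 1163 CPM in MET+ and 826.7 and 694.8 CPM in MET-KO libraries. The groups of CD63 did not overlap, with a log2 fold change of -0.52 (standard error 0.10, edgeR adjusted p = 4.02e-05). CD63 and CD9 both lie on chromosome 12 like TSPAN8, and the tested genes within 5 Mb of CD63 had a median of -0.50, so that CD63 was at -0.02 relative to its neighbourhood while CD9 was at -0.78 relative to its own. The part of the shift of the region in the value of CD63 was not tested.

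CD81, a partner of the complement receptor CR2 and an entry receptor of hepatitis C virus, was higher in both MET-KO libraries. It had 224.5 and 246.0 CPM in MET+ and 322.3 and 309.5 CPM in MET-KO libraries, a log2 fold change of 0.42 (standard error 0.09, edgeR adjusted p = 0.000178), and the median of chromosome 11, where it lies, was 0.04. CD151, the tetraspanin most tightly bound to laminin-binding integrins, had 132.9 and 143.9 CPM in MET+ and 140.9 and 146.6 CPM in MET-KO libraries. The groups overlapped, and the log2 fold change of 0.05 (standard error 0.09) had an edgeR adjusted p of 0.656. POLR2L, on the other strand, covers the 3' end of CD151. The sources used here do not give the strand setting of the counting. Reads of the overlap may thus be counted for either gene or for neither. CD82, known as the metastasis suppressor KAI1, was low, with 5.56 and 5.85 CPM in MET+ and 7.55 CPM in both MET-KO libraries. Both MET-KO libraries lay above the MET+ libraries, but its log2 fold change of 0.40 (standard error 0.26) did not pass the test (edgeR adjusted p = 0.189).

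**Figure D2:**
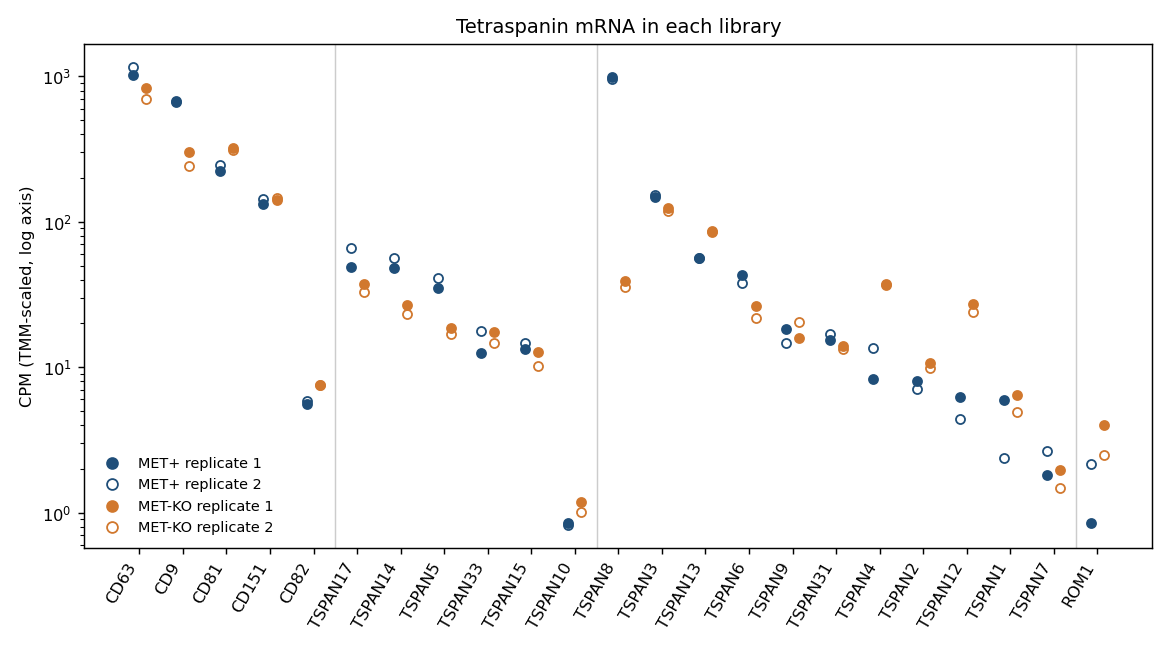
Level of each tetraspanin gene with at least 10 counts in a library, in CPM on a log axis, with 1 point for each of the 4 libraries and colour for the group. CD63 is highest in both groups, the TSPAN8 points of the groups are 26.2-fold apart in their means, and the MET-KO points of TSPAN12 and TSPAN4 lie above their MET+ points.

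The TspanC8 tetraspanins share a cysteine-rich extracellular loop and escort the metalloprotease ADAM10 from the endoplasmic reticulum to the surface, each directing it to its own substrates. Of the 6 members, 3 were lower in MET-KO cells, none was called higher and 3 did not pass the test. This share of 3 in 6 is near the 54.1% called over all tested genes. TSPAN5 had 35.3 and 41.0 CPM in MET+ and 18.7 and 16.9 CPM in MET-KO libraries, a log2 fold change of -1.10 (standard error 0.14, edgeR adjusted p = 5.39e-08). TSPAN14 had 48.5 and 56.7 CPM in MET+ and 26.9 and 23.3 CPM in MET-KO libraries, a log2 fold change of -1.07 (standard error 0.13, edgeR adjusted p = 1.03e-08). In MET-KO cells TSPAN5 was thus at 46.8% and TSPAN14 at 47.7% of the MET+ level, and for neither gene did the groups overlap. AC021028.1, on the other strand, covers the 3' end of TSPAN14 and was counted 0 times in MET+ libraries and 3 times in each MET-KO library. The reserve given for reads of the CD151 overlap holds for TSPAN14 as well. TSPAN17 had 48.6 and 66.0 CPM in MET+ and 37.2 and 33.2 CPM in MET-KO libraries, a log2 fold change of -0.71 (standard error 0.13, edgeR adjusted p = 1.91e-05), on chromosome 5, whose median was -0.43.

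TSPAN15, the partner through which ADAM10 cleaves N-cadherin, had 13.4 and 14.8 CPM in MET+ and 12.7 and 10.1 CPM in MET-KO libraries, with an edgeR adjusted p of 0.176. TSPAN33 had 12.6 and 17.7 CPM against 17.6 and 14.7 CPM, with overlapping groups and an edgeR adjusted p of 0.726. TSPAN10 was counted 7 and 8 times in the MET+ libraries, and 12 and 11 times in the MET-KO libraries, too few to show a change of modest size (log2 fold change 0.39, standard error 0.58). The 6 genes together had 159.1 and 196.9 CPM in MET+ and 114.1 and 99.3 CPM in MET-KO libraries. Their share of all tetraspanin counts was 4.54% and 5.31% in MET+ and 5.42% and 5.29% in MET-KO libraries, ranges that overlap. ADAM10 itself went the other way, from 59.0 and 60.7 CPM in MET+ to 153.5 and 156.6 CPM in MET-KO libraries (log2 fold change 1.37, standard error 0.10, edgeR adjusted p = 7.5e-14). In MET+ cells the 6 escorts summed to more CPM than ADAM10 in both libraries, and in MET-KO cells to less in both.

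TSPAN12 and TSPAN4 rose most among the other members. TSPAN12, a co-receptor that strengthens Norrin signalling through FZD4 in retinal vessels, had 6.28 and 4.41 CPM in MET+ and 27.2 and 24.1 CPM in MET-KO libraries. The groups were far apart, with a log2 fold change of 2.27 (standard error 0.20, edgeR adjusted p = 1.36e-11). TSPAN12 lies on chromosome 7, 3.99 Mb from MET. The tested genes of that chromosome had a median of 0.50, and TSPAN12 lay 1.77 above it and 1.58 above the median of genes within 5 Mb. TSPAN4, a component of migrasomes, the vesicles left on retraction fibres of migrating cells, had 8.34 and 13.6 CPM in MET+ and 37.5 and 37.0 CPM in MET-KO libraries. This gave a log2 fold change of 1.75 (standard error 0.17, edgeR adjusted p = 1.12e-10). TSPAN4 starts 2976 bases beyond the end of CD151 on chromosome 11, where CD151 had a log2 fold change of 0.05. For each count of TSPAN4 there were 15.9 and 10.6 counts of CD151 in MET+ libraries and 3.76 and 3.96 in MET-KO libraries.

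TSPAN13 was higher and TSPAN6 and TSPAN3 were lower, all by less than 2-fold. TSPAN13 had 56.6 and 56.7 CPM in MET+ and 85.3 and 86.0 CPM in MET-KO libraries, a log2 fold change of 0.60 (standard error 0.10, edgeR adjusted p = 9.3e-06). It is another gene of chromosome 7, and the genes within 5 Mb had a median of 1.17, so that TSPAN13 lay 0.09 above the median of its chromosome and -0.58 relative to its neighbourhood. TSPAN6 on chromosome X had 42.8 and 37.7 CPM in MET+ and 26.4 and 21.7 CPM in MET-KO libraries, a log2 fold change of -0.74 (standard error 0.14, edgeR adjusted p = 2.19e-05). TSPAN3 had 148.8 and 153.4 CPM in MET+ and 124.5 and 119.3 CPM in MET-KO libraries. Its groups did not overlap, and its log2 fold change of -0.31 (standard error 0.09) passed the test with an edgeR adjusted p of 0.00561. The call was lost with library totals alone (adjusted p = 0.0616) and without MET+ replicate 2 (adjusted p = 0.0535), and relative to the median of chromosome 15 the value was 0.12.

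ROM1, which with PRPH2 shapes the rims of photoreceptor discs, was called higher from few counts. It was counted 7 and 21 times in the MET+ libraries, and 41 and 27 times in the MET-KO libraries, with groups that did not overlap and a log2 fold change of 1.07 (standard error 0.46, edgeR adjusted p = 0.0483). This call was lost with DESeq2's Wald test (adjusted p = 0.244), with the replicate number as a block (0.0548), without MET+ replicate 1 (0.304) and without MET-KO replicate 1 (0.436). Without the ROM1 call the family counts 4 higher and 8 lower members.

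A further 5 of the other TSPAN genes did not pass the test. TSPAN2, expressed in myelinating glia, had 8.10 and 7.08 CPM in MET+ and 10.7 and 9.85 CPM in MET-KO libraries (edgeR adjusted p = 0.096), with MET-KO above. TSPAN31 had 15.5 and 17.0 CPM against 14.0 and 13.4 CPM (adjusted p = 0.249), with MET-KO below, and CDK4, which lies on the other strand and covers its 3' end, had a log2 fold change of -0.77. The groups of the remaining 3 overlapped. TSPAN9, a platelet tetraspanin, had 18.4 and 14.8 CPM in MET+ and 15.8 and 20.4 CPM in MET-KO libraries, and TSPAN7, a gene of X-linked intellectual disability, had 1.81 and 2.67 CPM against 1.96 and 1.47 CPM. TSPAN1 had 5.92 and 2.36 CPM in MET+ and 6.47 and 4.88 CPM in MET-KO libraries, and its MET+ libraries differed so far that its log2 fold change was 1.26 (adjusted p = 0.00389) without MET+ replicate 1 and -0.07 without MET+ replicate 2.

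The other 10 members were not tested, and they are named here after their values were seen. At 0 counts in all 4 libraries, which allows up to 0.276 to 0.363 CPM, were the leukocyte genes CD53 and TSPAN32, the photoreceptor gene PRPH2, the urothelial plaque gene UPK1B, and TSPAN11, TSPAN16, TSPAN18 and TSPAN19. Genes on the other strand cover the 3' ends of TSPAN11 (AC008013.1, 12 to 44 counts), TSPAN16 (RAB3D, 456 to 664) and TSPAN18 (TP53I11, 307 to 659). Reads of such an overlap may be counted for either gene or for neither, so this CPM limit may not hold for those members. CD37, another leukocyte tetraspanin, had 3 counts in MET+ replicate 1 and 0 elsewhere, while TEAD2, which covers its 3' end from the other strand, was counted 3 and 4 times in MET+ libraries, and 146 and 142 times in MET-KO libraries. UPK1A, the partner gene of the urothelial plaque, was at 0 in MET+ cells and was counted 8 and 5 times in the MET-KO libraries. Set against a floor of 3 counts in each MET+ library, the observed MET-KO level of UPK1A was 1.86-fold higher. This ratio leaves out the counting error of the MET-KO libraries and is thus not a lower limit. When no filter on low counts was used, UPK1A was called higher by edgeR (adjusted p = 0.027) and not by DESeq2's Wald test (adjusted p = 0.0786).

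The make-up of the family, by counts, was dominated by a few genes in both groups. QuantSeq gives counts that do not grow with transcript length, so levels of different genes are set side by side in CPM, with the reserve that the priming of each 3' end may differ. In MET+ libraries CD63, TSPAN8 and CD9 held 76.2% and 75.6% of all tetraspanin counts, and in MET-KO libraries the same genes held 55.4% and 51.8%. TSPAN8 alone held 28.2% and 26.0% in MET+ and 1.86% and 1.89% in MET-KO libraries. The leading genes in MET-KO libraries were CD63, CD81 and CD9, with 68.9% and 66.4%. By mean level in MET+ cells the order was CD63, TSPAN8, CD9, CD81, TSPAN3 and CD151, with no overlap between the libraries of neighbours, all above 100 CPM. In MET-KO cells it was CD63, CD81, CD9, CD151, TSPAN3 and TSPAN13, also without overlap between neighbours, followed by TSPAN8, TSPAN4 and TSPAN17, of which the neighbours overlapped. TSPAN8 moved from rank 2 to rank 7, TSPAN12 from rank 19 to rank 10 and TSPAN4 from rank 16 to rank 8.

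**Figure D3:**
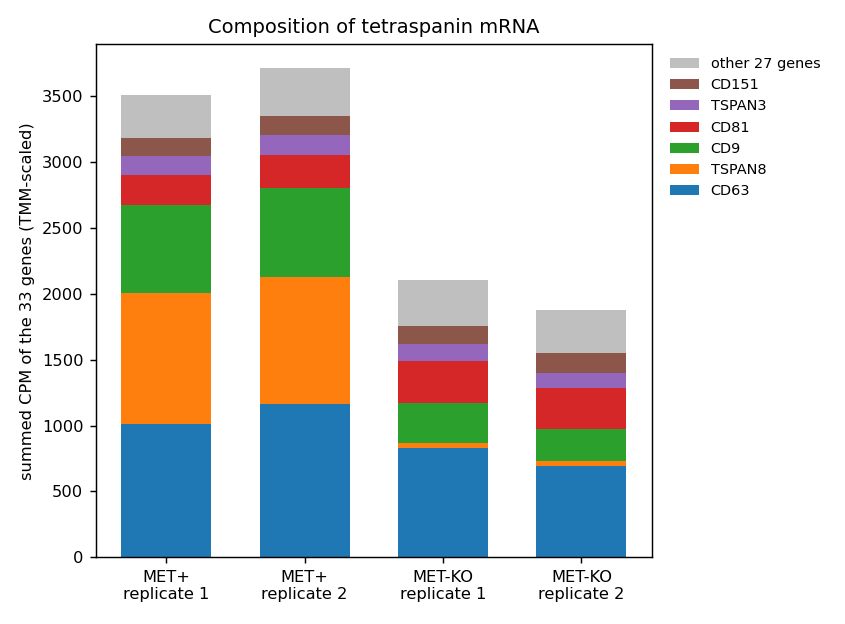
Summed level of the tetraspanin genes in each of the 4 libraries, in CPM, as stacked bars that start at 0. Blocks show the leading members. The TSPAN8 block makes up 28.2% and 26.0% of the MET+ bars and 1.86% and 1.89% of the MET-KO bars. The CD81 block makes up 6.40% and 6.64% of the MET+ bars and 15.3% and 16.5% of the MET-KO bars.

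Ratios within a library, which do not depend on the scaling between libraries, show the same shifts. There were 2.98 and 2.75 counts of CD9 for each count of CD81 in MET+ libraries and 0.936 and 0.783 in MET-KO libraries, so the order of these vesicle markers turned. There were 1.48 and 1.42 counts of TSPAN8 for each count of CD9 in MET+ libraries and 0.130 and 0.146 in MET-KO libraries. There were 1.52 and 1.72 counts of CD63 for each count of CD9 in MET+ libraries and 2.74 and 2.87 in MET-KO libraries. A ratio shows that a pair of genes changed unequally and not which of them changed.

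The summed level of the 33 genes was 3508 and 3708 CPM in MET+ and 2107 and 1877 CPM in MET-KO libraries. The means were 3608 ± 141 and 1992 ± 163 CPM (SD, n = 2 each), so the MET-KO sum was 55.2% of the MET+ sum, and the groups did not overlap. TSPAN8 weighs heavily in this sum. Without TSPAN8, a reading added after the values were seen, the sums were 2519 and 2744 CPM in MET+ and 2068 and 1841 CPM in MET-KO libraries, or 74.3%. The chromosomes on which the members lie also differed. On chromosome 11, 3 of 5 tested members were higher and none was called lower, with a median of 0.42, and on chromosome 12, none of 5 was called higher and 3 were lower, with a median of -0.52, where all tested genes of these chromosomes had medians of 0.04 and -0.32. Of all tested genes, 28.6% of those on chromosome 11 were called higher and 24.1% lower, and 18.5% and 45.1% of those on chromosome 12. The part of these shifts of whole chromosomes in the values of the members was not tested.

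RNA of genes whose products act with tetraspanins was called in both directions. In a list of 32 such genes, 25 were tested, of which 8 were higher, 9 were lower and 8 did not pass (68.0% called, against 54.1% of all tested genes), and the median of their log2 fold changes was 0.10, against 0.01 over all tested genes. The list was drawn up with earlier results of these data known. Among the laminin-binding integrin genes, partners of CD151, ITGB4 had 244.3 and 243.2 CPM in MET+ and 64.0 and 66.0 CPM in MET-KO libraries (log2 fold change -1.91, standard error 0.10, edgeR adjusted p = 5.18e-18). ITGA6, the other chain of that receptor, had 467.3 and 456.8 CPM against 261.0 and 261.4 CPM (log2 fold change -0.82), and ITGA3 had 24.2 and 27.6 CPM against 12.8 and 12.2 CPM (log2 fold change -1.06). ITGB1, a chain shared by many integrins, had 12.9 and 16.1 CPM against 10.3 and 13.4 CPM, with overlapping groups and an edgeR adjusted p of 0.2.

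EPCAM and CLDN7, which form a complex with TSPAN8 in carcinoma cells, were also lower. EPCAM had 439.6 and 435.7 CPM in MET+ and 194.9 and 211.0 CPM in MET-KO libraries (log2 fold change -1.11), and CLDN7 had 300.0 and 347.7 CPM against 137.2 and 129.8 CPM (log2 fold change -1.28). HBEGF, whose membrane-bound precursor is held by CD9, had 23.2 and 24.7 CPM against 8.73 and 7.37 CPM (log2 fold change -1.58). All 3 passed the test with groups that did not overlap. The channel gene ORAI1 (log2 fold change -1.02) and the Wnt co-receptor gene LRP6 (-1.05), both on chromosome 12, were lower as well.

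The partner genes that rose by at least 2-fold were ADAM10, CD44, MMP14, CR2 and IFITM1. CD44, a hyaluronan receptor found in tetraspanin complexes, had 88.6 and 79.2 CPM in MET+ and 231.9 and 239.5 CPM in MET-KO libraries (log2 fold change 1.49, edgeR adjusted p = 4.92e-15). MMP14, a membrane-anchored matrix metalloproteinase, had 15.2 and 14.4 CPM against 36.2 and 36.5 CPM (log2 fold change 1.30). CR2, a complement receptor that joins CD81 on B cells, was counted 10 and 11 times in MET+ libraries, and 228 and 245 times in MET-KO libraries (log2 fold change 4.25). IFITM1, an interferon-induced partner of CD81, was counted 0 and 2 times in MET+ libraries, and 19 and 20 times in MET-KO libraries, a ratio of 16.7 by summed counts with a 95% counting interval of 4.32 to 143. For TSPAN12, its receptor FZD4 had 6.89 and 6.36 CPM in MET+ and 7.55 and 8.29 CPM in MET-KO libraries (edgeR adjusted p = 0.385), and its ligand gene NDP had 1 count in a single MET-KO library.

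**Figure D4:**
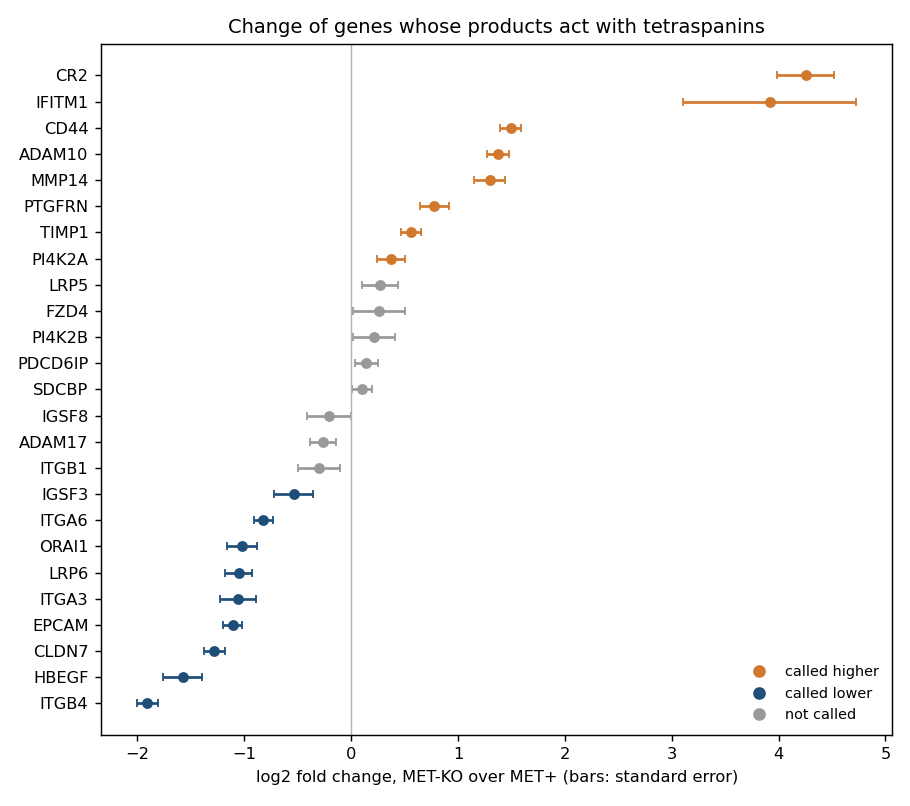
Fitted log2 fold change (MET-KO over MET+, horizontal axis) of the 25 tested genes whose products act with tetraspanins, with bars for the standard error and colour for the edgeR call. ITGB4 is lowest at -1.91, CR2 is highest at 4.25, and the wide bar of IFITM1 goes with the 2 counts it had in MET+ cells.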

How the data were processed

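The deposited files hold, for each library, whole counts of reads per Ensembl gene without normalization. The submitters' processing notes name bcl2fastq, cutadapt 1.16, FastQC 0.11.7, MultiQC 1.5, STAR 2.5.4a, featureCounts 1.6.2, DESeq2 1.18.1 and GRCh38, and the strand setting and annotation release are not given in the sources used here. The 99 spike-in rows held 0 counts and were left out. Symbols, positions and overlaps came from GENCODE version 29, and promoter windows from RefSeq (25 of 33 members matched).

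Counts were tested with edgeR 4.0.16 (R 4.3.3, filterByExpr by group, TMM scaling, quasi-likelihood test, condition only, Benjamini-Hochberg over 13801 genes, threshold 0.05). The standard error is the log2 fold change divided by the root of F. P-values measure only the spread between these libraries. The members and gene lists were chosen with earlier results of these data known. Every member with at least 10 counts in a library was named, as were MET, ITGA3, ITGA6, ITGB1, ITGB4, ADAM10 and partner genes called with at least a 2-fold change. FZD4, NDP, LGR5 and the genes that cover a member's 3' end were named after their values were seen.

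As alternatives, libraries were scaled by DESeq2 size factors or by their totals, DESeq2 1.42.0 (Wald test) replaced edgeR, the filter was dropped or set to 10 counts throughout, the replicate number entered as a block, a 2-fold minimum was set, each library was left out, and values were taken relative to the median of the chromosome or of genes within 5 Mb. The sum without TSPAN8 was added after seeing the data. Same-numbered libraries did not deviate together (correlation -0.035).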

Additional observations from a re-analysis of the deposited data

How the results depend on the processing

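Of the 23 tested members, 19 had the same call in every count fit that tested them, and TSPAN1, TSPAN2, TSPAN3 and ROM1 did not. With a 2-fold minimum, 3 members were higher and 4 lower, and 5 partner genes were higher and 7 lower. The median log2 fold change of the members, a value set by the genes near 0, was -0.21 with at least 10 counts in every library (21 members) and -0.129 to -0.0479 when a library was left out. The summed ratio was 0.743 without TSPAN8 and 0.520 to 0.584 with a library left out. Leaving out a library gave 4 to 5 higher and 7 to 8 lower members, 7 to 8 higher and 8 to 10 lower partner genes and -1.99 to -1.93 for MET. Leaving out a library also turned the direction of TSPAN33 (-0.129 to 0.35), TSPAN1 (-0.0725 to 1.26) and TSPAN9 (-0.0617 to 0.30), of which TSPAN1 was called without MET+ replicate 1. Relative to genes within 5 Mb, TSPAN13 was at -0.58 and TSPAN3 at 0.19, and relative to its chromosome TSPAN3 was at 0.12. With the replicate number as a block, 4 members were higher and 8 lower, and ROM1 was the member that lost its call. The numbers did not pair the libraries. Library totals alone gave 6 higher and 7 lower members, with TSPAN2 called (log2 fold change 0.54) and TSPAN3 lost, and raised the median of all genes to 0.11. The cause of these changes was not tested beyond the fewer members or libraries that a setting leaves. Below about 20 counts, as for TSPAN10, UPK1A and CD37, depth limits what can be seen.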
